A study of Mus musculus with 6 samples.

Results

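The aminoacyl-tRNA synthetases are the enzymes that join each amino acid to its transfer RNA (tRNA). The 36 genes described here are 20 cytosolic and 16 mitochondrial synthetase genes, chosen by their symbols from the 16588 genes of the deposited table, and all 36 had a row and passed the filter on low counts. In 6 libraries, RNA was sequenced from mouse lung ILC2s (group 2 innate lymphoid cells). The 3 wild-type (WT) libraries carry the genotype label C57BL/6 and the 3 others the label Cnr2 KO, a loss of the gene for cannabinoid receptor CB2. In both groups, mice had been given 0.5 µg of recombinant mouse IL-33 intranasally on 3 days, cells were taken from lung on day 4, and the sorted ILC2s were kept in culture for 18 h. The sources used here do not give the Cnr2 allele, the age or sex of the mice, or whether replicates are separate animals. The p-values therefore cover only the spread between these libraries, part of which may be technical.

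Cytosolic synthetases charge the tRNAs used by cytosolic ribosomes, and a separate set of nuclear genes, most with symbols ending in 2, encodes the enzymes imported into mitochondria, where they charge tRNAs encoded by the mitochondrial genome. Several cytosolic enzymes are held together with scaffold proteins in the multisynthetase complex. When amino acids are short, the kinase GCN2 senses uncharged tRNA, and the transcription factor ATF4, made in greater amount under that stress, is known to raise transcription of many cytosolic synthetase genes. In activated lymphocytes, including cytokine-secreting ILC2s, the supply of charged tRNA serves a high rate of protein synthesis.

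A level below is in CPM, a library's counts scaled to a common total with TMM factors, and 3 values in a row are replicates 1, 2 and 3. Library totals were 17867541 to 19399819 counts in 5 libraries and 129617689 in WT replicate 2. Cnr2 itself was at 3.99, 3.89 and 3.17 CPM in WT and at 7.55, 7.42 and 7.49 CPM in the Cnr2 KO-labelled libraries, a log2 fold change of 1.01 ± 0.162 (SE, n = 3 per group; edgeR adjusted p = 2.11e-05). The count of the targeted gene was thus higher, not lower, in the group labelled as its knockout. The deleted part of the gene is not given in the sources used here. A count over the whole gene does not show whether an intact transcript was made, so it does not test the labels. Every direction below is that of the labels. All 12 ILC2 markers listed had a row, with summed levels of 8952.4 to 9688.1 CPM in WT and 11787.0 to 12711.5 CPM in the Cnr2 KO-labelled libraries. Of these 12 genes, 9 rose (Gata3 by 1.90 on the log2 scale), beside 33.1% of all tested genes. Thy1, counted among the 9, was low, at 0.945, 0.968 and 0.845 CPM in WT and 3.44, 3.74 and 3.88 CPM in the other group. Il13 (-0.91) and Areg (-0.80) fell, and Il5, the largest part of the sum, did not pass the test (0.02). Of 50 markers in 11 lists for other cell types, 24 had a row, and no list's sum exceeded 114.3 CPM. In 7 of these lists the sums of the 2 groups did not overlap. Levels of single genes did not overlap in 34.8% (lower) and 34.1% (higher) of all tested genes, so such a split was common. Endothelial sums (Pecam1 alone had a row) were 105.9 to 114.3 CPM in WT and 39.3 to 40.3 CPM in the other group. T cell sums were 5.86 to 6.26 and 18.2 to 21.4 CPM, with no row for Cd4, Cd8a or Cd8b1, and epithelial sums 10.6 to 21.7 and 44.7 to 50.0 CPM, with no row for Sftpc or Scgb1a1. The remaining sums without overlap, those of the B cell, macrophage, dendritic cell and erythroid lists, were also higher in the Cnr2 KO-labelled libraries. The part of other cells in the differences below was not tested.

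Most synthetase transcripts were lower in the Cnr2 KO-labelled libraries. At an adjusted p under 0.05, 31 of the 36 genes (86.1%) fell, 1 rose and 4 did not pass the test, whereas 33.2% of all 12150 tested genes fell and 33.1% rose. The fall held in both compartments, with 18 of 20 cytosolic and 13 of 16 mitochondrial genes lower. The median log2 fold change was -0.30 over the cytosolic genes (range -0.79 to 0.18) and -0.36 over the mitochondrial genes (range -1.28 to 0.06), beside 0.01 over all tested genes. In 32 of the 36 genes all 3 libraries labelled Cnr2 KO lay below all 3 WT libraries, beside 34.8% of all tested genes. Falls of at least 2-fold were rare: 1 of the 36 genes, Fars2, passed that mark, beside 7.47% of all tested genes. In bulk RNA, fewer transcripts per cell and fewer cells that carry them cannot be told apart.

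**Figure D1:**
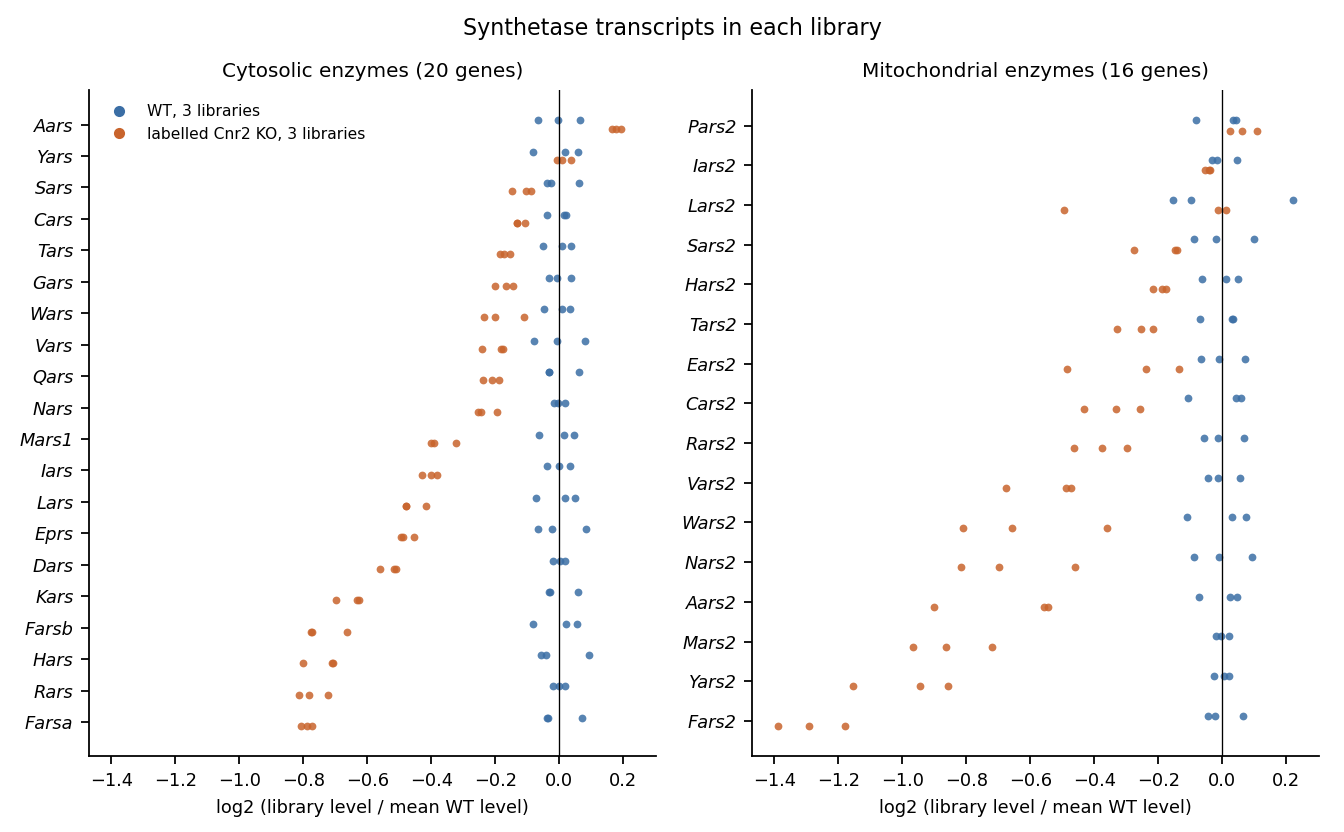
Level of each synthetase gene in each library, as log2 of the CPM level over the mean WT level of that gene (x axis), with cytosolic genes on the left and mitochondrial genes on the right; each point is 1 library. Points of the Cnr2 KO-labelled libraries lie left of all WT points for 32 of the 36 genes, and right of them for Aars.

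Summed over the 20 cytosolic genes, the level was 7916.4, 7679.1 and 8136.2 CPM in WT and 6529.5, 6516.3 and 6531.6 CPM in the Cnr2 KO-labelled libraries, a ratio of the means of 0.825. The 3 lower sums were nearly identical to each other and lay well apart from the WT sums. Over 15 mitochondrial genes without Lars2, the sums were 659.0, 644.2 and 665.8 CPM in WT and 492.6, 484.1 and 483.6 CPM in the other group, a ratio of 0.742. With Lars2 included, the mitochondrial sums of the 2 groups overlapped (3010.8 to 3740.3 and 2361.3 to 3138.5 CPM), because Lars2 alone supplied most of the sum.

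Among the cytosolic enzymes, both subunits of phenylalanyl-tRNA synthetase were among the 4 genes with the largest falls. Farsa (chromosome 8, 84856989 to 84869257, GRCm38), which encodes the alpha subunit with the catalytic site, stood at 201.9, 187.9 and 187.2 CPM in WT and at 111.4, 112.5 and 110.0 CPM in the Cnr2 KO-labelled libraries. Its log2 fold change was -0.79 ± 0.050 (SE; adjusted p = 6.04e-11). Farsb, the beta subunit, stood at 224.4, 240.7 and 246.8 CPM in WT and at 138.6, 149.8 and 139.0 CPM in the other group, a log2 fold change of -0.74 ± 0.052 (adjusted p = 2.96e-10). The 2 subunits, which form 1 enzyme, thus moved by nearly the same amount, and in neither did any library of one group reach the other. Hars, which charges histidine tRNA, was at 295.8, 293.0 and 324.6 CPM in WT and at 185.9, 186.3 and 174.6 CPM in the Cnr2 KO-labelled libraries (log2 fold change -0.74 ± 0.051, adjusted p = 2.40e-10). Its exons overlap those of Hars2 on the opposite strand by 195 bases, and without a stated strand setting reads from that stretch cannot be assigned between them. Farsb also shares 248 exon bases with Sgpp2 on the opposite strand, which was at 0.385 CPM in WT.

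All 8 enzymes of the multisynthetase complex were lower, with a median log2 fold change of -0.47 and a range of -0.77 to -0.21. Rars (chromosome 11, 35808381 to 35834506, GRCm38), for arginine, had the largest fall of these, from 218.0, 220.4 and 223.7 CPM in WT to 133.8, 125.7 and 128.2 CPM (log2 fold change -0.77 ± 0.047, adjusted p = 4.05e-11). Kars, which charges lysine tRNA in both compartments from 1 gene, was at 265.9, 265.3 and 282.8 CPM in WT and at 167.1, 175.0 and 175.7 CPM in the other group (log2 fold change -0.65 ± 0.047). Neither gene's groups came near each other. Dars, for aspartate, went from 217.1, 211.8 and 214.8 to 145.4, 150.0 and 150.8 CPM (log2 fold change -0.53). Eprs, a fused enzyme for glutamate and proline, went from 504.9, 490.3 and 543.7 to 363.8, 365.5 and 374.7 CPM (log2 fold change -0.48). Lars, for leucine, went from 374.3, 351.4 and 382.2 to 264.8, 264.7 and 277.0 CPM (log2 fold change -0.46). These 3 genes showed the same order of groups, with the Cnr2 KO-labelled libraries within a narrow band below WT. Iars, for isoleucine, went from 544.2, 517.6 and 531.3 to 407.2, 402.4 and 394.2 CPM (log2 fold change -0.40), and Mars1, for methionine, from 473.7, 439.7 and 463.5 to 350.2, 366.9 and 347.6 CPM (log2 fold change -0.37). The smallest fall of the complex was that of Qars, for glutamine, with means of 116.6 ± 4.39 and 100.7 ± 1.74 CPM (SD, n = 3 each; log2 fold change -0.21, adjusted p = 0.00157). Mars1 shares 68 exon bases with Ddit3 on the opposite strand, a gene that rose, from 7.68 to 14.3 CPM.

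The 12 cytosolic genes outside the complex had a median log2 fold change of -0.18, with 10 lower, 1 higher and 1 that did not pass the test. Most of these falls were small. Nars, for asparagine, was at 770.5, 777.3 and 789.1 CPM in WT and at 653.5, 656.9 and 680.8 CPM in the Cnr2 KO-labelled libraries (log2 fold change -0.23 ± 0.041, adjusted p = 7.10e-05). Vars, for valine, was at 775.5, 737.3 and 824.2 CPM in WT and at 689.1, 658.7 and 687.2 CPM in the other group (log2 fold change -0.20 ± 0.047, adjusted p = 0.00101). In both, the groups were separate but close. Wars, for tryptophan, Tars, for threonine, and Gars, which charges glycine tRNA in both compartments, fell by 0.18, 0.17 and 0.17 on the log2 scale, with adjusted p-values of 0.00283, 0.00200 and 0.00166. Cars, for cysteine, was at 228.6, 220.0 and 229.3 CPM in WT and at 206.3, 206.1 and 209.9 CPM in the other group (log2 fold change -0.12, adjusted p = 0.0225). Sars, for serine, was at 358.4, 355.5 and 381.6 CPM in WT and at 329.6, 343.5 and 340.1 CPM in the other group (log2 fold change -0.11, adjusted p = 0.0369). These last calls hung on single libraries. The call of Cars was lost without replicate 1 or 2 labelled Cnr2 KO (adjusted p = 0.0571 and 0.0732), and that of Sars without WT replicate 3 or without any one of the Cnr2 KO-labelled libraries (adjusted p = 0.0604 to 0.120).

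Aars and Yars departed from the other cytosolic genes. Aars (chromosome 8, 111033144 to 111057664, GRCm38), for alanine, was at 590.1, 564.5 and 619.1 CPM in WT and at 676.5, 663.0 and 669.5 CPM in the Cnr2 KO-labelled libraries. Each of the latter exceeded every WT library, and the log2 fold change was 0.18 ± 0.044 (SE; adjusted p = 0.00153). With an offset for the GC content and length of each gene the value was 0.01 (adjusted p = 0.827), and the call was lost. Aars also shares 1326 exon bases with Exosc6 on the same strand. Yars, for tyrosine, was at 363.3, 338.5 and 373.6 CPM in WT and at 360.9, 356.6 and 367.9 CPM in the other group, with all 3 of the latter inside the WT range (log2 fold change 0.01 ± 0.047, adjusted p = 0.792).

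**Figure D2:**
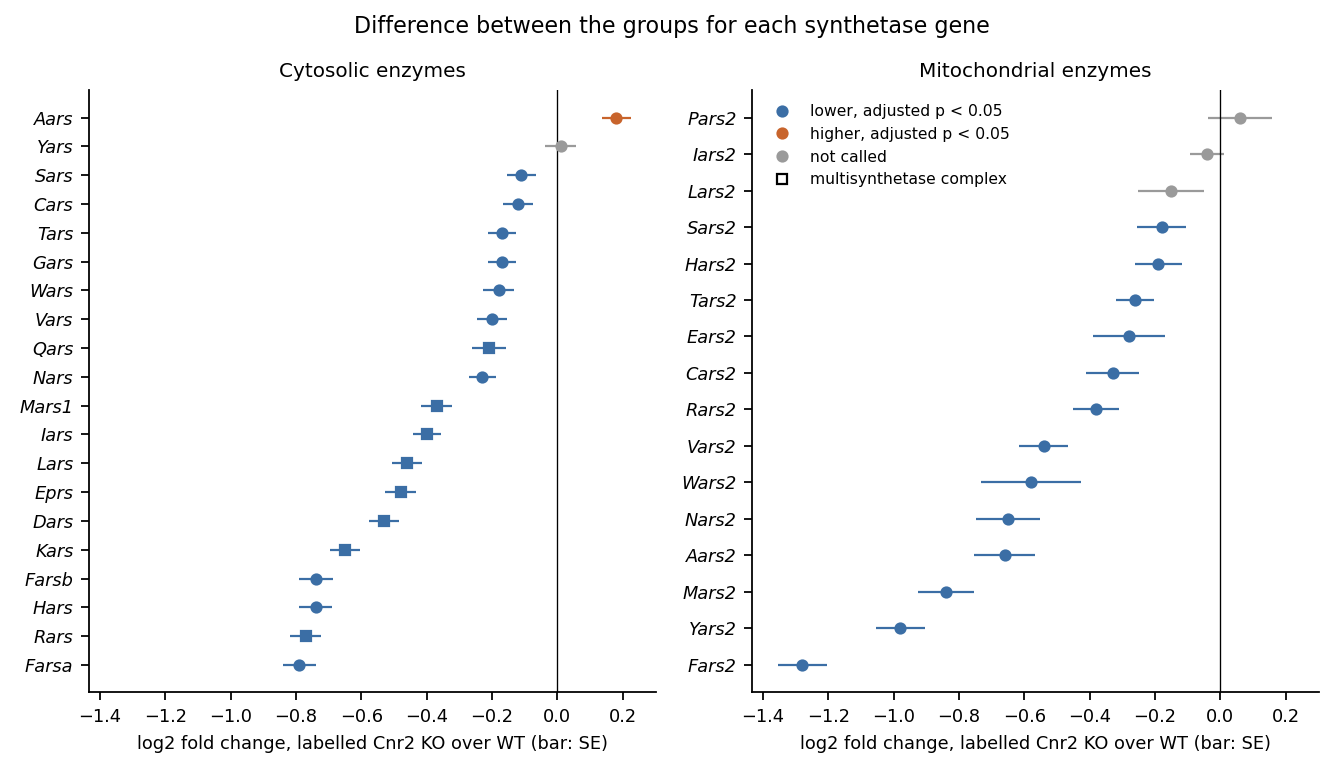
Log2 fold change of each synthetase gene, libraries labelled Cnr2 KO over WT (x axis; bars are SE), cytosolic on the left and mitochondrial on the right; colour gives the call and squares mark enzymes of the multisynthetase complex. The 8 squares lie between -0.77 and -0.21, and Fars2, at -1.28, lies farthest left.

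Promoter sequences show where the 5 cytosolic genes with an ATF response-element core carry it. RefSeq promoters (GRCm38.p6, 250 bases before to 50 after the start, both strands searched) were matched for 27 of the 36 genes, 13 cytosolic and 14 mitochondrial. The core TGATGNAA, searched on both strands and printed as its reverse complement where it lies on the other one, is the kind of element that ATF4 binds with C/EBP partners. It was in 5 of the 13 cytosolic promoters (38.5%), in 0 of the 14 mitochondrial ones and in 4.51% of 27025 gene promoters. The sites are shown because these 5 genes include Aars and Yars, the cytosolic genes that did not fall. Each line gives 30 bases around 1 core per gene read 5′ to 3′ on the gene's strand, with the core in capitals, from Aars (chr8:111033840-111033869, plus strand), Gars (chr6:55037960-55037989, plus strand), Iars (chr13:49682126-49682155, plus strand), Tars (chr15:11399655-11399684, minus strand) and Yars (chr4:129189895-129189924, plus strand).
Aars: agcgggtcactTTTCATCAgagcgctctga
Gars: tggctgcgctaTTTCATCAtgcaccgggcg
Iars: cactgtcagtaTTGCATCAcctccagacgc
Tars: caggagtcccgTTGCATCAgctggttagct
Yars: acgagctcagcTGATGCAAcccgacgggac

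Among the 5 sites shown, that of Yars alone reads TGATGNAA on the gene's own strand. The log2 fold changes of the 5 genes with a core were -0.40 (Iars), -0.17 (Gars and Tars), 0.01 (Yars) and 0.18 (Aars), a median of -0.17 with 3 lower. The 8 cytosolic genes whose promoter window lacked these letters (Dars, Eprs, Farsa, Farsb, Kars, Mars1, Qars and Sars) were all lower, with a median of -0.51 and a range of -0.79 to -0.11. Of these, Dars, Eprs, Kars, Mars1 and Qars belong to the multisynthetase complex, but only Iars of the genes with a core does. The split by core and that by complex thus partly coincide. The ranges overlapped, and the other 7 cytosolic genes could not be placed, so this is a description with no test. The split of fold changes by core was not set in advance, and with the GC and length offset Aars was at 0.01. The E-box letters CACGTG were in 4 of 13 cytosolic promoters (30.8%; Aars, Farsb, Iars and Tars), in 1 of 14 mitochondrial promoters (7.14%; Ears2) and in 8.09% of all gene promoters. A match of letters is not evidence of binding.

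**Figure D3:**
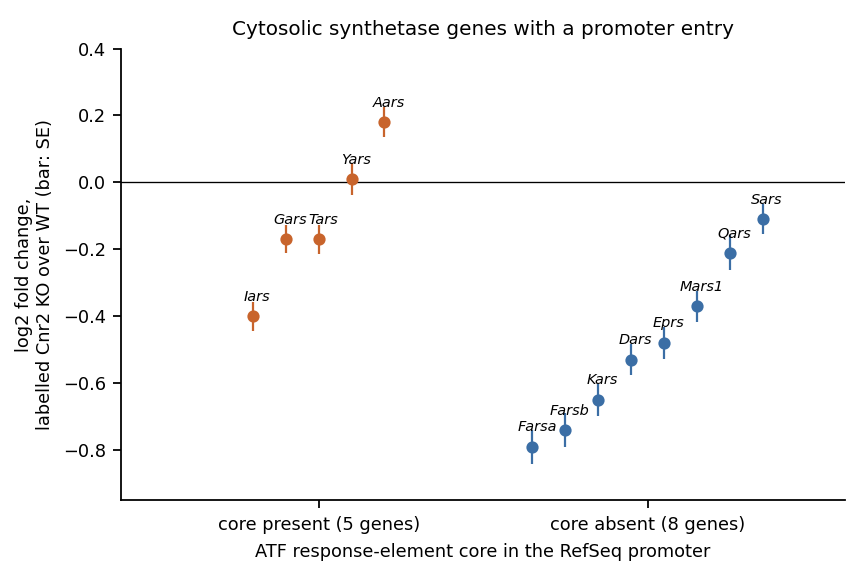
Log2 fold change (y axis; bars are SE) of the 13 cytosolic synthetase genes with a RefSeq promoter, split by presence of the ATF response-element core within 250 bases before to 50 after the start. The 5 genes with the core lie between -0.40 and 0.18 and the 8 without it between -0.79 and -0.11.

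The mitochondrial enzymes held the largest falls. Fars2 (chromosome 13, 36117412 to 36726280, GRCm38), the single-chain mitochondrial phenylalanyl-tRNA synthetase, was at 59.4, 58.4 and 63.0 CPM in WT and at 23.0, 26.6 and 24.6 CPM in the Cnr2 KO-labelled libraries, a 2.43-fold fall (log2 fold change -1.28 ± 0.075, adjusted p = 1.98e-11). Yars2 (chromosome 16, 16302965 to 16309640), for tyrosine, was at 65.0, 63.0 and 64.3 CPM in WT and at 28.8, 35.4 and 33.3 CPM in the other group, a 1.97-fold fall (log2 fold change -0.98 ± 0.075, adjusted p = 1.09e-09). No library of one group approached the other in either gene. Fars2 has exon bases in common with genes on the opposite strand: 115 with Lyrm4, which fell from 35.4 to 8.11 CPM (log2 fold change -2.13), and 501 with Nrn1. The share of Fars2 counts that came from such stretches was not tested.

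A further group of mitochondrial genes fell by 0.54 to 0.84 on the log2 scale. Mars2, for methionine, went from 31.0, 30.7 and 31.6 to 18.9, 17.1 and 15.9 CPM (log2 fold change -0.84 ± 0.086, adjusted p = 6.40e-08). Aars2, for alanine, went from 31.8, 34.0 and 34.5 to 22.9, 17.9 and 22.7 CPM (log2 fold change -0.66 ± 0.093, adjusted p = 4.11e-06). Both were separate in all libraries, with more spread among the Cnr2 KO-labelled libraries than among WT. Nars2, for asparagine, went from 28.0, 26.1 and 24.7 to 19.1, 16.2 and 14.9 CPM (log2 fold change -0.65 ± 0.098). Wars2, for tryptophan and the lowest of the 36 per kilobase, went from 8.35, 7.57 and 8.61 to 6.37, 5.18 and 4.66 CPM (log2 fold change -0.58 ± 0.154, adjusted p = 0.00266). Vars2, for valine, went from 48.4, 45.2 and 46.2 to 33.6, 29.2 and 33.2 CPM (log2 fold change -0.54 ± 0.075). The error was widest for Wars2, the gene with the fewest counts, and its groups still did not overlap. Nars2 and Vars2 share 284 and 465 exon bases with C230038L03Rik and Gm20483 on the opposite strand.

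Smaller falls completed the mitochondrial set. Rars2, for arginine, went from 50.2, 54.8 and 51.8 to 37.9, 42.5 and 40.3 CPM (log2 fold change -0.38, adjusted p = 8.93e-05). Cars2, for cysteine, went from 36.8, 33.2 and 37.2 to 28.4, 26.5 and 29.9 CPM (log2 fold change -0.33, adjusted p = 0.00133). Tars2, for threonine, went from 93.0, 86.6 and 92.7 to 78.2, 76.2 and 72.2 CPM (log2 fold change -0.26, adjusted p = 5.93e-04). These 3 were lower in every Cnr2 KO-labelled library than in any WT library. Ears2, for glutamate, was at 15.1, 16.6 and 15.7 CPM in WT and at 14.4, 11.3 and 13.4 CPM in the other group (log2 fold change -0.28, adjusted p = 0.0280). Hars2, for histidine, was at 36.0, 37.9 and 38.9 CPM in WT and at 33.0, 32.4 and 33.3 CPM in the other group (log2 fold change -0.19, adjusted p = 0.0228). Sars2, for serine, was at 39.9, 38.1 and 43.4 CPM in WT and at 36.7, 36.5 and 33.4 CPM in the other group (log2 fold change -0.18, adjusted p = 0.0447). Cars2 and Ears2 share 422 and 89 exon bases with Naxd and Ubfd1 on the opposite strand. Naxd did not pass the test (log2 fold change -0.16), and Ubfd1 fell from 150.8 to 92.7 CPM (log2 fold change -0.70). The share of counts from these stretches was not tested.

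The groups of Ears2, Hars2 and Sars2 were separate but their calls did not hold throughout. Ears2 lost its call without WT replicate 2 (adjusted p = 0.118), without replicate 2 labelled Cnr2 KO (0.163) and, at a log2 fold change of -0.20, with the GC and length offset (0.111). Hars2 lost it without WT replicate 2 (0.0613), WT replicate 3 (0.0520) or replicate 2 labelled Cnr2 KO (0.0645), and with the reads of WT replicate 2 thinned (0.0568). Sars2 changed its call in 11 of 17 alternatives, among them DESeq2 (adjusted p = 0.0517) and, at a log2 fold change of -0.06, the GC and length offset (0.514). Leaving out any single library other than WT replicate 2 also ended its call (adjusted p = 0.0519 to 0.162).

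Pars2, Iars2 and Lars2 did not pass the test. Pars2, for proline, was at 14.1, 15.3 and 15.4 CPM in WT and at 16.1, 15.2 and 15.6 CPM in the other group (log2 fold change 0.06 ± 0.097, adjusted p = 0.585). Iars2, for isoleucine, was at 102.0, 96.7 and 97.6 CPM in WT and at 95.2, 95.9 and 96.1 CPM in the other group (log2 fold change -0.04 ± 0.052, adjusted p = 0.479). The Pars2 groups were interleaved, while the Iars2 values of the Cnr2 KO-labelled libraries all lay just under the lowest WT value. Iars2 shares 2034 exon bases with Rab3gap2 on the opposite strand, which rose from 95.3 to 146.5 CPM (log2 fold change 0.62), and with the GC and length offset Iars2 passed the test at -0.21 (adjusted p = 0.00152).

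Lars2 (chromosome 9, 123366927 to 123462666, GRCm38), for leucine, was the member with the highest level and the widest spread. It was at 2463.3, 2366.6 and 3074.5 CPM in WT and at 1868.7, 2608.9 and 2654.9 CPM in the Cnr2 KO-labelled libraries, with replicate 1 of the latter low and WT replicate 3 high (log2 fold change -0.15 ± 0.101, adjusted p = 0.207). Without replicate 1 labelled Cnr2 KO the value was 0.00 (adjusted p = 0.999) and without WT replicate 3 it was -0.03 (adjusted p = 0.819), whereas with the replicate number as a block it was -0.16 and passed the test (adjusted p = 0.0225). One stretch of 72 bases in its transcripts is 98.6% identical to Gm15564, an antisense gene with no row in the table. The mitochondrial ribosomal RNA mt-Rnr2 was also lowest in replicate 1 labelled Cnr2 KO (493.1, 608.8 and 614.0 CPM in WT, then 388.4, 649.7 and 589.2 CPM). In WT the orders differed, mt-Rnr2 being lowest in replicate 1 and Lars2 in replicate 2. Whether reads of Gm15564 or mt-Rnr2 add to the Lars2 count was not tested.

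Levels between genes can be compared only per length, here as CPM per kilobase of exon. The length joins the annotated exons of a gene, without taking out bases shared with other genes. Whether other reads add to the level of Lars2 was not tested. By that measure Lars2 stood first in WT at 676.6 CPM per kilobase, followed by Gars at 293.0, Nars at 266.1 and Vars at 188.3. The lowest cytosolic gene was Qars, at 41.7 CPM per kilobase, and every mitochondrial gene other than Lars2 lay below it, from Rars2 at 28.0 to Wars2 at 1.85. The median level was 106.6 CPM per kilobase over the cytosolic and 13.0 over the mitochondrial genes in WT, and 83.7 and 10.1 in the Cnr2 KO-labelled libraries. Of the 35 neighbouring pairs in the WT order, 14 overlapped in their replicate values, so the order within the middle of the list is not resolved.

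For 13 amino acids, 1 cytosolic gene could be set against its 1 mitochondrial counterpart in the same library. A scaling factor common to all genes of a library cancels in this ratio. An offset that differs between genes, such as that for GC content and length, does not cancel, and the ratios were not computed with it. Of these 13 ratios of cytosolic to mitochondrial level, 8 were higher in all libraries labelled Cnr2 KO than in any WT library, 3 were lower, and 2 overlapped. Levels of single genes did not overlap in 34.1% (higher) and 34.8% (lower) of all tested genes, and the same share over other gene pairs was not computed. The largest shift was in Yars over Yars2, with ratios of 5.59, 5.37 and 5.81 in WT and 12.5, 10.1 and 11.0 in the other group (difference of log2 ratio 1.00 ± 0.097, SE). Aars over Aars2 followed, with 18.5, 16.6 and 17.9 in WT and 29.5, 36.9 and 29.5 in the other group (difference 0.85 ± 0.117). In these 2 pairs the mitochondrial gene fell while the cytosolic one did not. Smaller shifts in the same direction were seen for the pairs of Mars1 (0.48), Nars (0.43), Wars (0.43), Vars (0.35), Cars (0.21) and Tars (0.09).

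The opposite shift was largest in Hars over Hars2, with ratios of 8.22, 7.72 and 8.34 in WT and 5.63, 5.75 and 5.25 in the other group (difference of log2 ratio -0.55 ± 0.052). Rars over Rars2 (-0.39) and Iars over Iars2 (-0.36) were lower as well. In all 3 pairs the log2 fold change of the cytosolic gene was the more negative. Hars and Hars2 share 195 exon bases with each other, Iars2 shares 2034 with Rab3gap2, which rose, and Fars2 shares 115 with Lyrm4, which fell. The part of such stretches in these ratios, and in those of other pairs with shared exon bases, was not tested. The pairs of Lars and Sars overlapped between groups. For phenylalanine, Farsa over Fars2 had a mean ratio of 3.20 ± 0.216 in WT and 4.51 ± 0.310 in the Cnr2 KO-labelled libraries (SD, n = 3 each), and Farsb over Fars2 had 3.94 ± 0.174 and 5.77 ± 0.222. The ratios are given without a p, and the smallest that an exact permutation test of 3 against 3 allows is 0.1.

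**Figure D4:**
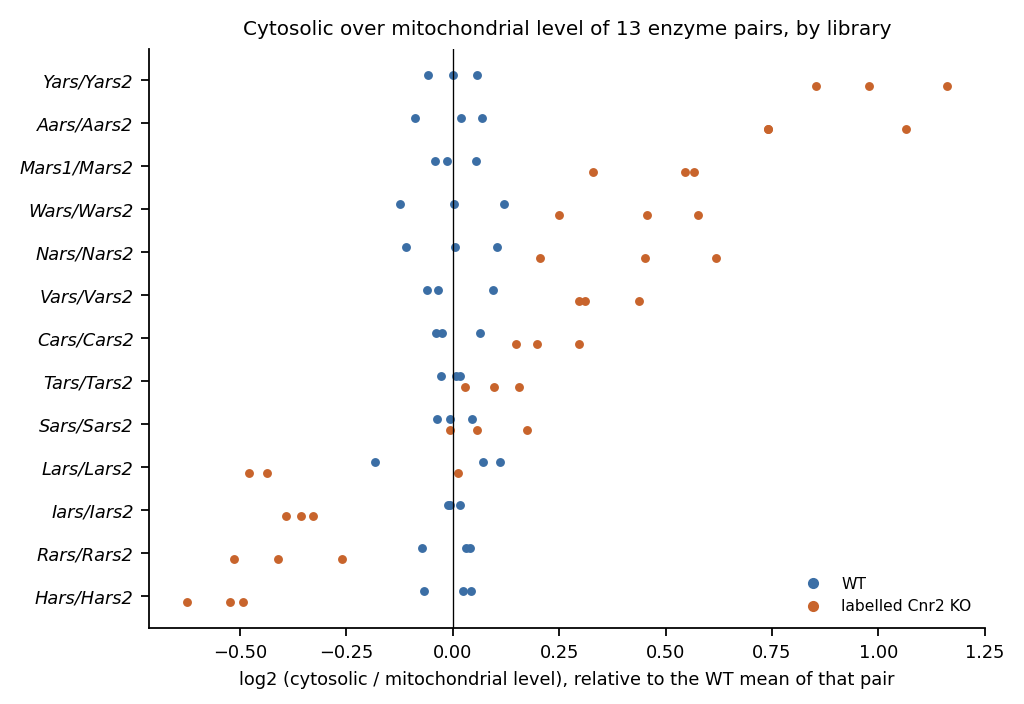
Ratio of the cytosolic to the mitochondrial gene's level in each library for 13 amino acids, as log2 relative to the WT mean of that pair (x axis); each point is 1 library. Yars over Yars2 lies 1.00 above the WT mean on average and Hars over Hars2 lies -0.55 from it.

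By catalytic fold, 16 of 19 class I enzymes, which share a Rossmann-type active site, were lower (median log2 fold change -0.37), and 15 of 17 class II enzymes, built on an antiparallel sheet, were lower (median -0.26). The class II set held both the largest fall, Fars2, and the 1 rise, Aars. Neither class stood apart by these counts. Eprs, the fused enzyme for glutamate and proline, was counted in class I alone, although Pars2, also for proline, was counted in class II. Kars and Gars, the genes that serve both compartments, had log2 fold changes of -0.65 and -0.17.

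Genes that work beside the synthetases were mostly lower too. Of 11 other synthetases and synthetase partners, 9 fell (median log2 fold change -0.43), beside 33.2% of all tested genes. The 3 scaffold proteins of the multisynthetase complex were among them. Eef1e1 (AIMP3) was at 108.0, 111.1 and 106.0 CPM in WT and at 39.5, 50.0 and 42.0 CPM in the other group (log2 fold change -1.31 ± 0.073, adjusted p = 9.81e-12), Aimp2 had a log2 fold change of -0.78 and Aimp1 of -0.56. Gatc, a subunit of the mitochondrial amidotransferase that completes glutaminyl-tRNA, fell by 0.55 on the log2 scale. Pstk, the kinase of the selenocysteine pathway, and Tarsl2, a second threonyl-tRNA synthetase, did not pass the test (0.23 and 0.10). With the GC and length offset Pstk was called higher (0.39, adjusted p = 0.00825). With WT replicate 2 thinned, 1 gene of this list was called higher.

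Of 8 genes for proofreading and recycling of aminoacyl-tRNA, 6 fell (median -0.48), beside 33.2% of all tested genes. Dtd1, a D-aminoacyl-tRNA deacylase, had a log2 fold change of -0.90, and the peptidyl-tRNA hydrolases Ptrh2 and Ptrhd1 had -0.65 and -0.52. Aarsd1, an alanyl-tRNA editing protein, and Mtrf1l, a mitochondrial release factor, did not pass (0.09 and 0.07). With the GC and length offset Aarsd1 was called higher (0.18, adjusted p = 0.0227). All 10 listed elongation and exchange factors of the cytosol and mitochondria fell, with a median of -0.63, beside 33.2% of all tested genes. Tufm, which delivers aminoacyl-tRNA to the mitochondrial ribosome, was at 237.5, 241.6 and 243.9 CPM in WT and at 108.8, 107.3 and 106.1 CPM in the other group (log2 fold change -1.17 ± 0.046, adjusted p = 7.86e-14). Eef1g, Eef1b2 and Eef1d, subunits of the cytosolic exchange factor, had log2 fold changes of -1.08, -0.89 and -0.86. Eef1a1, the cytosolic carrier, had -0.19, and Eef2, the translocation factor, had -0.50. With the GC and length offset 9 of the 10 were called lower, Eef1a1 being at -0.09 (adjusted p = 0.0922).

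Of 33 genes for tRNA transcription, maturation and export, 26 fell and 1 rose (median -0.59), beside 33.2% and 33.1% of all tested genes. Hsd17b10, a subunit of mitochondrial RNase P, had a log2 fold change of -1.08, and Elac2, which trims tRNA 3′ ends, had -0.95. Xpot, the tRNA exporter, had -0.55. The gene that rose was Brf1, a polymerase III initiation factor, at 0.21 (adjusted p = 0.00694). With the GC and length offset 24 genes of this list were called lower and 4 higher, and without WT replicate 1 there were 2 called higher.

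The list for GCN2, ATF4 and the amino acid response, the pathway that reads uncharged tRNA, held calls both ways. Of its 30 genes 8 rose and 15 fell (median -0.13), beside 33.1% and 33.2% of all tested genes. Atf4 itself was at 327.2, 327.7 and 338.8 CPM in WT and at 321.8, 316.1 and 323.7 CPM in the Cnr2 KO-labelled libraries, a small shift that did not pass the test (log2 fold change -0.05 ± 0.043, adjusted p = 0.350). Asns, asparagine synthetase and a known ATF4 target, did not pass either (-0.09, adjusted p = 0.0912). The lowest p-values were those of Nupr1, a stress-induced chromatin protein (-2.11), Cth, which makes cysteine (-1.93), Eif2s1, the eIF2 alpha subunit (-0.70), and Atf3, a stress-induced transcription factor (-2.77), all lower. Among the 8 genes that rose were Eif2ak2 (1.06), Ddit3, which encodes CHOP (0.92), Chac1 (0.60) and Trib3 (0.56). Transcript levels carry no measure of ATF4 protein or of eIF2 phosphorylation.

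Of 15 amino acid transporters 5 rose and 5 fell (median 0.15), shares close to those of all tested genes (33.1% and 33.2%). Slc7a8, a neutral amino acid exchanger, was at 222.9, 215.4 and 205.7 CPM in WT and at 1285.0, 1152.5 and 1159.1 CPM in the Cnr2 KO-labelled libraries (log2 fold change 2.48 ± 0.052, adjusted p = 1.30e-17). Its heavy-chain partner Slc3a2 had a log2 fold change of 0.79, and Slc36a4, another amino acid transporter, had 0.48, while Slc7a6 had -0.69. Slc7a5 and Slc1a5, the leucine and glutamine carriers of activated lymphocytes, did not pass the test (0.06 and 0.02). Without replicate 2 or replicate 3 labelled Cnr2 KO, 3 transporters were called lower in place of 5.

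**Figure D5:**
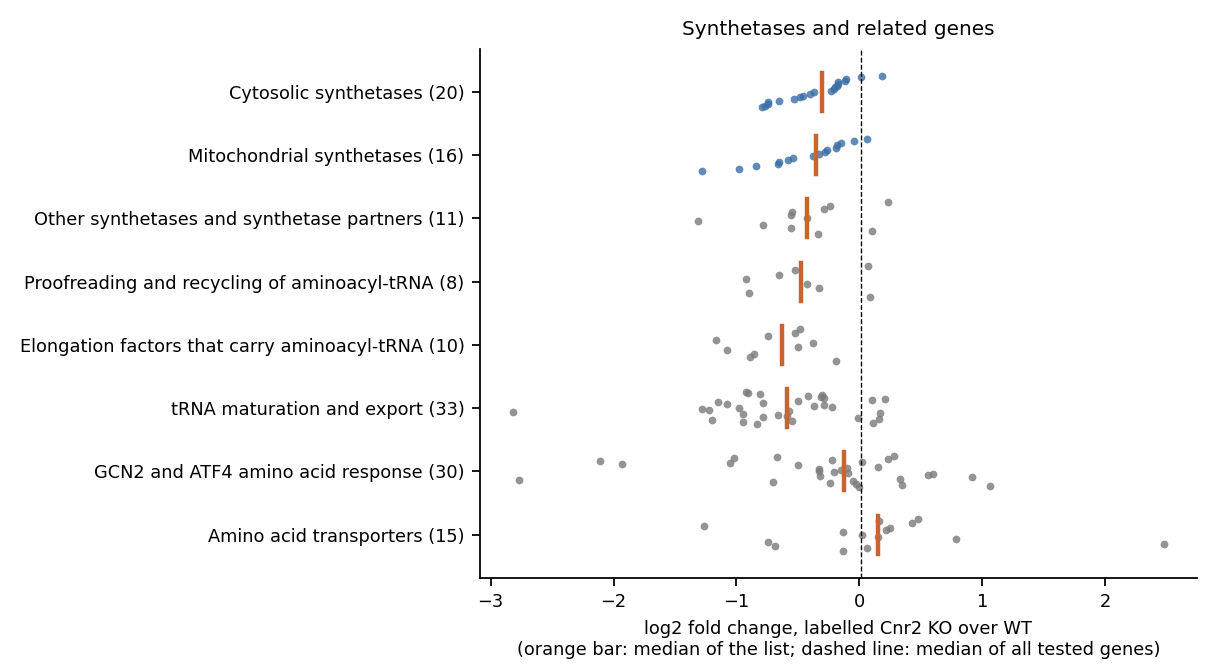
Log2 fold change, libraries labelled Cnr2 KO over WT (x axis), of each gene in the synthetase groups and in 6 lists of related genes; points are genes, orange bars the median of a list, and the dashed line the median of all tested genes (0.01). The medians of the synthetase, partner, proofreading, elongation and tRNA maturation lists lie between -0.63 and -0.30, that of the amino acid response at -0.13 and that of the transporters at 0.15.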

How the data were processed

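The authors deposited 1 table of expected counts, estimated counts per gene and library that need not be whole. The tools and build named, per the submitters' processing notes, are STAR 2.7.8, Partek 10.0, DESeq2 and mm10, without their roles or sequence. A low-input kit turned 10 pg of RNA per sample into cDNA, per the labels. How reads were counted, and with which strand setting, is not given in the sources used here. All labels name lung, which was used, although the title of the series speaks of adipose tissue.

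Values were rounded to whole counts. The whole table was fitted with edgeR 4.0.16 (quasi-likelihood test, R 4.3.3) on genotype alone, after TMM scaling and the filterByExpr filter, whose minimum count is 10 and minimum total 15. It tested 12150 genes, left out 4438, was tested on simulated data, and its p-values were adjusted over all tested genes by Benjamini-Hochberg, with calls under 0.05. SE is approximate, the absolute log2 fold change divided by the root of the F statistic. Depths of 17867541 counts or more put every synthetase gene above the filter, with SE from 0.041 (Nars) to 0.154 (Wars2, the gene with the fewest counts). Positions and exon lengths are from GENCODE M21 (GRCm38), which matched 16400 of 16588 symbols. Alternatives were other scalings, filters, DESeq2 1.42.0, limma 3.58.1, a GC and length offset, thinning WT replicate 2 and leaving out each library.

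The members and gene lists were chosen with earlier results of these data known. Values per library were given for the 12 genes of smallest adjusted p in each compartment, for those with adjusted p between 0.01 and 0.2, and for pairs called in opposite directions. The other members with such values were added after their values were seen. Of each related list, up to 4 called genes of smallest p and up to 2 others were named. Ddit3, Eif2ak2, Chac1 and Trib3 were added after their values were seen. Some genes and 1 sequence that these rules would name are not reported here.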

Additional observations from a re-analysis of the deposited data

How the results depend on the processing

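Of the 36 synthetase genes, 28 kept their call under all 17 alternatives and no called gene changed direction. The count of cytosolic genes called lower stayed between 16 and 18 and that of mitochondrial genes between 10 and 14. With the GC and length offset, alone or with the replicate block, 0 cytosolic genes were called higher in place of 1, and 1 synthetase partner, 1 proofreading gene and 4 tRNA maturation genes were called higher in place of 0, 0 and 1. Thinning WT replicate 2 also gave 1 partner called higher. Leaving out 1 library at a time gave 1 to 2 tRNA maturation genes called higher (2 without WT replicate 1) and 3 to 5 transporters called lower (3 without replicate 2 or 3 labelled Cnr2 KO), and at an adjusted p under 0.01 there were 3 such transporters. The causes were not tested. Same-numbered libraries correlated at 0.123, 0.0293 and 0.0888 in their deviations from the group means, and each library correlated best with its own number. The titles give these numbers no stated meaning, so the main fit left them out and a replicate block was an alternative. Whether same-numbered libraries share an effect was not tested. With the replicate block 18 cytosolic and 14 mitochondrial genes were called lower, Lars2 being added. The depth of WT replicate 2 was 6.88 times the mean depth of the other libraries. Among the synthetase genes, calls lost under any alternative belonged to genes with a log2 fold change between -0.28 and 0.18. With the GC and length offset 9 of 10 elongation factors and 24 in place of 26 tRNA maturation genes were called lower.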
